A study of Cercocebus atys with 16 samples.

Results

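Oxidative phosphorylation is the chain of mitochondrial protein complexes that passes electrons from NADH and succinate to oxygen and uses the proton gradient this builds to make ATP. Complexes I to IV carry the electrons and complex V, the ATP synthase, makes the ATP; most of their subunits are encoded in the nucleus and a few in mitochondrial DNA. Resting T cells draw much of their ATP from this chain, and T cells that have met antigen enlarge their mitochondria as they prepare to divide. Members were taken by gene name: every probe whose name began with NDUFA, NDUFB, NDUFC, NDUFS, NDUFV, SDH, UQCR or ATP5, or with COX and a digit from 4 to 8. The names took 100 of 43603 distinct probes, for 54 gene names, and 95 of the 100 (52 names) were well above background in at least 2 animals and were tested, among 27493 tested probes in all.

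The cells were CD3+ CD4- CD8- (double-negative) T cells from the blood of 4 sooty mangabeys, Cercocebus atys, all infected with SIV, the simian immunodeficiency virus. FBR and FTV were labelled CD4 low, and FKN and FNV CD4 normal. Beads depleted CD4, CD8 and CD16 cells and then selected CD3+ cells to a labelled purity above 98%, and after a night of rest the cells were stimulated for 4 hours with anti-CD3 (given as 3 mg/ml) and anti-CD28 (1 mg/ml), or left unstimulated; the 2 antibodies act on the T cell receptor complex and on a costimulatory receptor. Each animal gave 2 arrays of stimulated against unstimulated RNA with exchanged dyes, and 2 self-self arrays, 1 per condition. Ages were not given in the sources used here.

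Of 9 T cell markers, 7 were tested: CD2, CD3D and CD3G rose, CD247, CD5 and LCK fell (CD5 by 1.00 on the log2 scale), and CD3E did not pass. CD5 and LCK were well above background in 6 of 8 stimulated channels of the ratio arrays. One CD4 probe was above background in all 16 channels, at a linear level of 564 to 917 in stimulated and 584 to 739 in unstimulated cells, and the other CD4 probe in 0 channels. CD8A and CD8B were not analysed here. Of 12 monocyte markers, 8 were tested, all of them above background, and 5 were lower in stimulated cells. Their summed linear level was 4410 in FBR, 7110 in FTV, 6990 in FKN and 41100 in FNV in stimulated cells, against 5860, 12000, 11600 and 118000 in unstimulated cells. Of 7 B cell markers, 4 were tested, 2 were lower and 1 higher in stimulated cells, and their summed level was 730 to 2470 in stimulated against 1980 to 14200 in unstimulated cells, with FNV again the highest. Red cell and platelet markers summed to 20700, 34500, 22100 and 7000 in stimulated cells of FBR, FTV, FKN and FNV, against 26900, 44200, 30600 and 6200 in unstimulated cells, and of these HBA2 fell. The part of these other cells in the results below was not tested. FNV also stood apart technically: its slide was scanned on another day and scanner, and 33.3% to 64.8% of its spots were well above background per channel, against 57% to 65% in the other 3 animals. Every animal had its own slide, so slide and animal cannot be told apart.

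The array was designed on the rhesus macaque, and each probe is a 60-base sequence. The probes below are shown because the largest rise, the largest fall and the split within complex V rest on them, or because the probes of 1 name lie at different places in the genome; positions are those the files give on rheMac2. NDUFV2, which rose most, was read by a probe at chr18:5275351-5283330 (minus strand; its bases lie over a longer stretch of genome), and NDUFS8, which fell most, by a probe at chr14:6684592-6684651 (minus strand).
NDUFV2: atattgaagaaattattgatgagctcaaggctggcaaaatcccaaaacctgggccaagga
NDUFS8: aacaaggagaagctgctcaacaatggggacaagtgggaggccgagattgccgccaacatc

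ATP5G1, ATP5G2 and ATP5G3 are separate genes for the same ring protein of complex V, subunit c. The probes shown lie at chr16:33128898-33128957 (plus strand), chr11:50750822-50750881 (minus) and chr12:38832749-38832808 (minus), and are printed up to the stop codon, with capitals for bases that differ from ATP5G1.
ATP5G1: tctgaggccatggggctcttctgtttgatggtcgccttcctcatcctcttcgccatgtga
ATP5G2: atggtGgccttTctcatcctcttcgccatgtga
ATP5G3: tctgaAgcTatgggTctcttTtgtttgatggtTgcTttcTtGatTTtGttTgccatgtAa
Over the last 33 bases, ATP5G2 differed from ATP5G1 at 2 bases. Over 60 bases, ATP5G3 differed at 13, and 10 of these stood at the final position of a codon. In both comparisons 0 codons encoded another residue.

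NDUFAB1 and NDUFS5 had probes at more than 1 place. The NDUFAB1 probes shown are from chr20:22082637-22082696 and chr15:69869648-69869707 (both minus), and the NDUFS5 probes from chr1:41895796-41897939 and chr9:99483879-99483938 (both plus); capitals mark the bases that are identical where 2 probes of a name overlap.
NDUFAB1, chromosome 20: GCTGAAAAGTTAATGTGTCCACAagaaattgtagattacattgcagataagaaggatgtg
NDUFAB1, chromosome 15: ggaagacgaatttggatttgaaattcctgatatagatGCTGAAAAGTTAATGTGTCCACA
NDUFS5, chromosome 1: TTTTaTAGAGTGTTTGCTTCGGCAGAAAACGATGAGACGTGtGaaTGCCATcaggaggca
NDUFS5, chromosome 9: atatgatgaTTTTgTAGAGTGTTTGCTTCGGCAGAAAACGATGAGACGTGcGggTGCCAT
The NDUFAB1 pair shared 23 of 23 overlapping bases and the NDUFS5 pair 47 of 51, so RNA of 1 copy may be read by a probe placed at the other, and their values are uncertain as to the copy. Members were not all separate readings. When probes with 20 identical bases in a row were joined, the 95 tested probes formed 80 sets. Of these, 33 held a probe that rose and 14 one that fell after stimulation. Such sets were not counted over all tested probes, so these counts are not read as a trait of the members. Also, 15 of the 100 member probes shared 20 bases with a probe that carried another name or none.

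Stimulation moved oxidative phosphorylation genes in both directions and by small amounts, with more rises than falls. The response is the mean over 4 animals of the log2 ratio of stimulated over unstimulated RNA, and a probe is said to have risen or fallen where limma's adjusted p was under 0.05 over all tested probes. Of the 95 members, 41 rose (43.2%), against 19.9% of all tested probes, and 17 fell (17.9%), against 20.4% of all tested probes; the other 37 did not pass. The median response was 0.16 over members and -0.01 over all tested probes. In bulk RNA, fewer cells of a type and less RNA per cell cannot be told apart.

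Responses ran over -0.88 to 1.21, and only the 2 NDUFV2 probes were called at 2-fold or more. The SD between animals had a median of 0.12 over members and 0.16 over all probes. Each of the 41 probes that rose was above 0 in 4 of 4 animals, and each of the 17 that fell was below 0 in 4 of 4. On the self-self arrays, where the true ratio is 0, the median absolute ratio of members was 0.05 to 0.08, and the largest was 0.74, for ATP5A1 on the stimulated array of FTV. On each of the other self-self arrays the largest was 0.25 to 0.32. Every larger self-self ratio named below is thus from that FTV array. The 2 dye orientations of an animal correlated at 0.83 to 0.92 across member probes, which are not independent replicates.

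Most members were bright, and bright probes were called more often. With all tested probes cut by mean intensity into 4 classes of equal size, 79 of the 95 lay in the brightest class; there 40.5% of members rose, against 29.8% of all probes, and 21.5% fell, against 24.1% of all probes.

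How many members passed depended on the animals and on the normalisation. All 58 called members kept their direction under each of 15 alternatives that gave them a value. Some of these could not have changed it. Each called member had 4 of 4 animals on 1 side of 0, so leaving out 1 animal keeps the sign. A changed filter keeps the ratio itself. Without FKN, 16 members rose (17%) and 7 fell (7%), against 11% and 10% of all tested probes. Without FBR, 22 rose (23.2%) and 7 fell (7.37%), against 11.5% and 11.2%. Without FTV, 21 rose (22.1%) and 8 fell (8.42%), against 12.9% and 13.1%. Fewer of all tested probes thus passed as well. In each of these settings the share of members that rose stayed above that of all tested probes. Without FNV, the animal with the highest monocyte markers and the fit within the later scan day, 48 rose and 16 fell. These were 50.5% and 16.8%, against 25.9% and 25.3% of all tested probes. Feature Extraction's own ratios gave 36 (37.9%) and 8 (8.42%), against 22% and 22% of all tested probes. Median centring in place of loess gave 3 (3.16%) and 0, against 7.09% and 10.6% of all tested probes. With median centring, the share of members that rose was thus below that of all probes. The 3 were both NDUFV2 probes and NDUFAF3. Across settings, the NDUFV2 probe of highest intensity ranged over 0.94 to 1.31, that of NDUFS8 over -0.96 to -0.71, that of ATP5B over 0.56 to 0.72 and that of ATP5G2 over -0.45 to -0.34. Of the 58, 23 probes of 14 genes passed without each animal in turn: NDUFV2, NDUFS6, NDUFB6, NDUFAB1, NDUFAF2, NDUFAF3, UQCRQ, UQCRC2, ATP5B and ATP5SL rose, and NDUFS8, NDUFB10, NDUFB7 and ATP5G2 fell.

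By gene, the picture was as mixed. Of 52 genes with a tested probe, 19 rose and 8 fell with every probe, 20 had none passing, and 5 had some probes passing in 1 direction. With 1 probe per gene name, 21 rose (40.4%), against 19.1% of all 22226 names. In the same setting 8 fell (15.4%), against 21.2%. In 0 genes did probes pass in opposite directions, and in 0 of 32 genes with several tested probes did these differ by more than 1 log2 unit. Of the 45 subunit genes, 18 had a probe that rose, 9 had one that fell, and 18 had none passing. Genes with any such probe were not counted over all names.

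Complex I takes electrons from NADH. Of its 33 tested subunit probes 13 rose (39.4%) and 5 fell (15.2%), against 19.9% and 20.4% of all tested probes. Their median response was 0.14. Its core subunits, which carry the electrons, did not move together. NDUFV2, an iron-sulphur protein of the module that oxidises NADH, stood at 14.30 in FBR, 13.79 in FTV, 13.94 in FKN and 13.28 in FNV in stimulated cells, as normalised log2 intensity, against 13.04, 12.62, 12.88 and 12.49 in unstimulated cells. The lowest stimulated animal was above the highest unstimulated one. Its ratio was 1.21 ± 0.20 (SD, n = 4 animals; limma adjusted p = 0.000855), a 2.32-fold rise, and a second probe, in another stretch of the same chromosome, gave 1.16 ± 0.11.

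NDUFS8, an iron-sulphur protein of the module that hands electrons to ubiquinone, fell. Its brightest probe stood at 11.69 in FBR, 10.81 in FTV, 11.37 in FKN and 12.15 in FNV in stimulated cells, against 12.42, 11.82, 12.06 and 13.21 in unstimulated cells. Each animal was lower after stimulation, while the ranges over animals overlapped. The ratio was -0.79 ± 0.16 (limma adjusted p = 0.00169, n = 4), which is 0.579 of the unstimulated level, and the probe printed above gave -0.88 ± 0.23. NDUFS3, a core subunit of the same module, had a ratio of -0.14 ± 0.05 and did not pass (limma adjusted p = 0.087). It was below 0 in all 4 animals. NDUFS1, NDUFS7 and NDUFV1 were not analysed here.

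The accessory subunits, which surround the core and are needed to build or hold it, were also split. NDUFS6 rose, with ratios of 0.40 in FBR, 0.63 in FTV, 0.63 in FKN and 0.25 in FNV for its brightest probe (mean 0.48 ± 0.19, limma adjusted p = 0.0104, n = 4). NDUFB6, of the membrane arm, rose by 0.49 ± 0.15 and 0.31 ± 0.10 with its 2 probes, NDUFA12 by 0.42 ± 0.22, NDUFA1 by 0.30 ± 0.12 and NDUFC1 by 0.25 ± 0.13. The 4 probes of NDUFAB1, the mitochondrial acyl carrier protein, rose by 0.39 to 0.43 wherever they were placed. NDUFA1 was read by 1 probe, placed on chromosome 1, that shares sequence with a probe of another name, so it too is uncertain as to the copy.

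On the falling side were 2 other membrane arm subunits. NDUFB10 had ratios of -0.54 in FBR, -0.63 in FTV, -0.59 in FKN and -0.40 in FNV (mean -0.54 ± 0.10, limma adjusted p = 0.0025, n = 4), and its other probe gave -0.63 ± 0.08. NDUFB7 fell by 0.38 on the log2 scale, with ratios of -0.31, -0.50, -0.32 and -0.40 in the same order. In both genes each animal was below 0, and the spread between animals was small against the fall.

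Other complex I subunits that did not pass were NDUFA10, NDUFA8, NDUFB11, NDUFB2, NDUFS4, NDUFS5 and NDUFA4, with ratios of their tested probes between -0.13 and 0.23. NDUFA4, whose protein was later placed in complex IV, gave 0.07 with each of its 2 probes. The 3 NDUFS5 probes gave 0.13 to 0.14, and the pair printed above did not separate. NDUFA5 (3 probes) and 1 of 3 NDUFB2 probes were well above background in no channel of the ratio arrays, at levels of 6.32 to 6.55.

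Factors that help assemble complex I rose. NDUFAF3 had ratios of 0.53 in FBR, 0.60 in FTV, 0.50 in FKN and 0.66 in FNV (mean 0.57 ± 0.07, limma adjusted p = 0.00163, n = 4). NDUFAF2 rose by 0.57 ± 0.11, and NDUFAF1 by 0.38 ± 0.20, with FNV lowest at 0.13. The 2 factors of complex II, SDHAF1 and SDHAF2, gave 0.13 ± 0.12 and 0.00 ± 0.12 and did not pass. Assembly factors were thus 3 higher (60%) and 0 lower among 5 probes, against 19.9% and 20.4% of all tested probes. The number is small. Of 8 other assembly genes tested, outside the name prefixes, 2 rose, 0 fell and 6 did not pass by their brightest probe.

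Complex II oxidises succinate and sits in both the citric acid cycle and the electron chain. SDHB and SDHC were the subunits tested. The 3 probes of SDHC, a membrane anchor, rose by 0.25 to 0.36; the brightest gave 0.23 in FBR, 0.49 in FTV, 0.54 in FKN and 0.19 in FNV (mean 0.36 ± 0.18, limma adjusted p = 0.0217, n = 4). SDHB, its iron-sulphur subunit, gave 0.06 ± 0.11 and 0.05 ± 0.12 and did not pass, with FNV below 0 and the other 3 animals above. Whether the 2 genes differ in response was not tested. SDHA and SDHD were not analysed here.

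Complex III passes electrons from ubiquinol to cytochrome c. Of 15 probes 9 rose (60%) and 3 fell (20%), against 19.9% and 20.4% of all tested probes, and the median response was 0.33. UQCRQ, a small ubiquinone-binding subunit, stood at 14.38 in FBR, 13.73 in FTV, 14.14 in FKN and 14.03 in FNV in stimulated cells, against 13.95, 13.22, 13.70 and 13.70 in unstimulated cells. Its ratio was 0.53 ± 0.09 (limma adjusted p = 0.00228, n = 4), and all 4 animals lay between 0.45 and 0.62. UQCRFS1, the Rieske iron-sulphur protein, rose by 0.38 ± 0.15, and UQCRC2, a core protein of the matrix side, by 0.42 ± 0.11 and 0.44 ± 0.12. UQCRH, the hinge protein, rose by 0.31 to 0.35 with 3 probes.

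UQCRC1, the partner of UQCRC2, did not pass, and its animals disagreed. Its brightest probe gave 0.07 in FBR, 0.53 in FTV, 0.22 in FKN and -0.08 in FNV (mean 0.18 ± 0.26, limma adjusted p = 0.227, n = 4). UQCR, the name then used for the smallest subunit, fell by a small amount. Its 3 probes, 2 of them shifted by 1 base, gave -0.17 to -0.20 with SDs of 0.03 to 0.04 between animals. In FNV they gave 0.01 with stimulated RNA in Cy3, and -0.29 to -0.34 with it in Cy5. Median centring gave -0.08 to -0.11 (limma adjusted p = 0.695 to 0.772). With 1 animal left out, the highest limma adjusted p of each probe was 0.129 to 0.175. UQCRB had 2 probes on different chromosomes. The one placed on chromosome 6 rose by 0.36 ± 0.18 and the one on chromosome 8 gave -0.02 ± 0.07, so these may read different copies, and neither was bright, with levels of 7.34 to 8.24.

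Complex IV reduces oxygen to water, and its median response, -0.04, was the nearest to 0 among the complexes. Of 14 probes 2 rose (14.3%), against 19.9% of all tested probes, and 4 fell (28.6%), against 20.4%. The 4 falls were in probes of COX4I1 and COX6B1. COX4I1, a subunit through which ATP regulates the enzyme, fell slightly. Its brightest probe stood at 15.44 in FBR, 15.60 in FTV, 15.81 in FKN and 16.04 in FNV in stimulated cells, against 15.65, 15.76, 15.85 and 16.19 in unstimulated cells. All 4 animals were slightly lower after stimulation; the ratio was -0.17 ± 0.04 (limma adjusted p = 0.048, n = 4), and it was -0.07 (limma adjusted p = 0.784) with median centring. On the stimulated self-self array of FTV the same probe reached a ratio of 0.57 in size, more than its response. COX6B1 had 2 probes shifted by 1 base, at -0.20 (limma adjusted p = 0.0453) and -0.19 (limma adjusted p = 0.0582), on either side of the threshold.

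COX5A ran the other way. Its 3 probes gave 0.31 to 0.41, and 2 passed; the brightest, with 0.20 in FBR, 0.50 in FTV, 0.50 in FKN and 0.03 in FNV, did not (limma adjusted p = 0.0602, n = 4). COX6C gave 0.10 ± 0.09 and 0.07 ± 0.12. Among forms known from particular tissues, COX4I2, the form of lung, was below background, and COX6A2, of heart and muscle, and COX6B2, of testis, gave ratios of -0.06 to 0.07. COX7AH, another heart and muscle form, was split by animal: 0.15 in FBR, -0.07 in FTV, -0.06 in FKN and -0.74 in FNV, the animal whose monocyte markers were highest. COX4NB, which lies beside COX4I1 and is no subunit, rose by 0.28 ± 0.09.

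Complex V makes ATP from the proton gradient. Of 19 probes 7 rose (36.8%) and 5 fell (26.3%), against 19.9% and 20.4% of all tested probes, and the median was 0.15. Its catalytic head is a ring of alpha and beta subunits, and the beta transcript rose while the alpha transcript fell a little. ATP5B, the beta subunit, stood at 15.11 in FBR, 14.85 in FTV, 15.18 in FKN and 14.97 in FNV in stimulated cells, against 14.57, 13.99, 14.52 and 14.58 in unstimulated cells. The groups did not overlap; the ratio was 0.63 ± 0.15 (limma adjusted p = 0.00273, n = 4). ATP5A1, the alpha subunit, had ratios of -0.22 in FBR, -0.30 in FTV, -0.24 in FKN and -0.15 in FNV (mean -0.23 ± 0.06, limma adjusted p = 0.0247, n = 4). It was -0.13 (limma adjusted p = 0.593) with median centring, the adjusted p reached 0.111 with 1 animal left out, and its largest self-self ratio, 0.74 in size, exceeded the response. For ATP5B the largest self-self ratio was 0.53. ATP5D, the delta subunit of the stalk, also fell by 0.20 on the log2 scale. ATP5D was -0.11 (limma adjusted p = 0.726) with median centring, and its adjusted p reached 0.128 with 1 animal left out. Its largest self-self ratio, 0.42 in size, exceeded the response.

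The 3 genes of subunit c, whose printed codons encode the same residues, differed in direction. ATP5G3 had ratios of 0.49 in FBR, 0.85 in FTV, 0.68 in FKN and 0.24 in FNV (mean 0.57 ± 0.26, limma adjusted p = 0.0132, n = 4). ATP5G2 had -0.42, -0.43, -0.46 and -0.41 in the same animals (mean -0.43 ± 0.02, limma adjusted p = 0.0025). The largest self-self ratios of these ATP5G3 and ATP5G2 probes were 0.67 and 0.49 in size, each above the size of its response. ATP5G3 was above 0 and ATP5G2 below 0 in every animal, and ATP5G2 hardly varied between animals. The other ATP5G2 probes gave -0.45 and -0.29.

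ATP5G1 depended on the probe. Its 2 other probes, placed downstream of the stop codon, gave 0.51 ± 0.29 and 0.49 ± 0.28 (limma adjusted p = 0.0229 and 0.024, n = 4) and rose, while the coding probe printed above gave 0.15 ± 0.15 and did not pass. That probe shared 31 of 33 overlapping bases with the ATP5G2 probe printed beside it, and that ATP5G2 probe had the smallest fall of the 3; the part of cross-hybridisation was not tested. Among the other subunits, ATP5H of the stator rose with 1 of 2 probes (0.22 ± 0.08). By animal, that probe gave 0.35 to 0.50 with stimulated RNA in Cy3, and -0.11 to 0.13 with it in Cy5. It did not pass with Feature Extraction's ratios (limma adjusted p = 0.136) or with median centring (limma adjusted p = 0.303). ATP5E, ATP5J and ATP5O did not pass, with ratios between -0.12 and 0.18. ATP5SL, which carries the prefix and is no subunit, rose with 3 probes by 0.39 to 0.49.

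Genes that work with the complexes were read from a list of 88, of which 47 had a tested probe. By their brightest probe 12 rose (25.5%), 8 fell (17.0%) and 27 did not pass, shares near the 19.9% and 20.4% of all tested probes. The largest rise was in CYCS, cytochrome c, the carrier between complexes III and IV: 1.51 in FBR, 2.02 in FTV, 1.68 in FKN and 1.35 in FNV (mean 1.64 ± 0.29, limma adjusted p = 0.000818, n = 4). This mean ratio was above that of every member probe. CYC1, the cytochrome c1 subunit of complex III whose name the prefixes miss, rose by 0.47 ± 0.10. DHODH, a pyrimidine synthesis enzyme that feeds electrons to ubiquinone, rose by 0.94 ± 0.23.

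Of 9 regulators of mitochondrial DNA and its expression, 5 rose (55.6%) and 0 fell, against 19.9% and 20.4% of all tested probes. C10orf2, the mitochondrial DNA helicase, rose by 1.48 ± 0.24, and PPRC1, a coactivator of mitochondrial gene programmes, by 0.97 ± 0.24. TFB2M, a mitochondrial transcription factor, gave 0.76 in FBR, 0.80 in FTV, 0.77 in FKN and 0.77 in FNV (limma adjusted p = 0.000671, n = 4), an almost equal rise in each animal. TWISTNB, on the same list, also rose and is left out of this count, since it is known as an RNA polymerase I subunit. TFAM, which packages mitochondrial DNA, gave 0.32 ± 0.23 and did not pass (limma adjusted p = 0.0539). LRPPRC, which stabilises mitochondrial mRNAs, rose by 0.80 ± 0.22.

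Falls were led by ATPIF1, the inhibitor protein of complex V, with ratios of -0.70 in FBR, -0.95 in FTV, -0.85 in FKN and -0.91 in FNV (mean -0.85 ± 0.11, limma adjusted p = 0.000892, n = 4). SLC25A4, an ADP and ATP carrier, fell by 0.63 on the log2 scale, while VDAC1, a pore of the outer membrane, rose by 0.67 ± 0.29. ETFB and ETFDH, which bring electrons from fatty acid oxidation to ubiquinone, had ratios of -0.47 ± 0.15 and -0.41 ± 0.03. Of 8 mitochondrially encoded genes tested, 4 fell (50%) and 0 rose by their brightest probe, against 20.4% and 19.9% of all tested probes. The list is short, and for COX1, ND4 and ND4L limma's adjusted p was near the threshold, at 0.0449 to 0.0469. ND4 had a dimmer probe at -0.02, which did not pass. ND1 also had a dimmer probe, under the name MT-ND1, at 0.11, which did not pass. COX1, among the genes that fell, had -0.35, -1.02, -0.55 and -0.12 in FBR, FTV, FKN and FNV (mean -0.51 ± 0.38, limma adjusted p = 0.0469). The files place COX1 and ND1 probes in the nuclear genome, so the source of their signal is uncertain.

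CD4 status was labelled low in FBR and FTV and normal in FKN and FNV. CD4-low minus CD4-normal, 0 of 95 members and 0% of all tested probes passed in limma for the stimulation response, the unstimulated level or the stimulated level. At an unadjusted p under 0.05 there were 0 members for the response, 1 for the unstimulated level and 1 for the stimulated level, against 594, 445 and 530 of all tested probes. That member was ATP5E, whose dimmer probe differed by -0.73 in unstimulated and -0.65 in stimulated cells, lower in the CD4-low animals.

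In level, 78 of 95 members were lower in the CD4-low animals in unstimulated cells (median difference -0.27) and 70 in stimulated cells (median -0.21), though none passed. The share of all tested probes that was lower was not counted, so this is not read as a trait of the members. Over all tested probes the median unstimulated level was 8.22 in FBR, 8.22 in FTV, 8.23 in FKN and 8.3 in FNV. By animal, the median response was 0.17 in FBR and 0.26 in FTV, against 0.18 in FKN and 0.09 in FNV. The median level in stimulated cells was 12.68 and 12.26 in FBR and FTV, against 12.63 and 12.51 in FKN and FNV, and in unstimulated cells 12.53 and 12.07 against 12.53 and 12.59. FTV was thus the lowest in level and FBR close to FKN. Leaving out FKN gave 10 members and 5120 of all probes called for the stimulated level, but that fit sets FBR and FTV against FNV alone, with its own scan day. Without FNV, within 1 scan day, 0 members passed for any measure, with FKN as the only CD4-normal animal. A p that misses the threshold with 2 animals against 2 does not show that the groups are alike.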

How the data were processed

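RNA of stimulated and unstimulated double-negative T cells was hybridised to 16 arrays of 2 colours. The authors deposited each array's scanner output, written by version 10.7.3.1 of Agilent's Feature Extraction, with linear intensity of each spot and its background before any normalisation. Per the file headers, the same files hold the software's corrected log10 ratio, Cy5 over Cy3. The authors' deposited table of log2 ratios per animal, was an alternative; the submitters' processing notes name limma and Agilent Feature Extraction, with no role or order given here; it correlated with the ratios below at 0.88 to 0.93, with slopes of 1.22 to 1.29.

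In R 4.3.3 with limma 3.58.1, mean signals were corrected by normexp (offset 50) and loess within each array, control and outlier spots were left out, and each animal's 2 ratio arrays were averaged, so that n = 4. Levels are means over channels after Aquantile. A probe was tested where both ratio arrays of an animal were well above background in 1 condition, in at least 2 animals. Responses were tested with lmFit and eBayes, with Benjamini-Hochberg adjustment over all 27493 tested probes. CD4 status was tested as 2 animals against 2. The fit was tested on simulated data. On 1 FNV array the title and a characteristic disagree on channel 2; the title and the stated dye flip were followed. Names are those of the newer of 2 annotation editions.

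Named in the text are, per complex, the largest 3 rises and 3 falls, core subunits and forms of 1 subunit, with the brightest probe leading. Other members were added for coverage, and CYC1, TFB2M, TFAM, VDAC1, ND1 and TWISTNB after their values were seen. Members, lists and tests were chosen with earlier results of these data known. Array number limits the precision.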

Additional observations from a re-analysis of the deposited data

Results flagged for a closer look

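In 3 results a single animal or the CD4 groups stood apart; with groups of 4, about 1 in 20 is singled out by chance. The brightest NDUFV2 probe had a response of 0.92 in FNV, below the 1.28 to 1.34 of the other animals. SDHAF1, an assembly factor of complex II, had -0.05 in FTV, against 0.17 to 0.20 in the others. One COX6C probe was above 0 in both CD4-low animals and below 0 in both CD4-normal animals, a difference of 0.17 with a limma adjusted p of 1. The ratios of that probe were 0.22 in FBR, 0.09 in FTV, -0.03 in FKN and -0.01 in FNV.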

How the results depend on the processing

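No called member changed sign under any of the 15 alternatives that gave it a value, but counts moved. Leaving out an animal or changing the filter could not have changed a sign. Members called higher and lower were 41 and 17 in the fit reported, and subunits 34 and 17. Feature Extraction's ratios gave 8 lower members and 8 lower subunits. The lower members were 8.42% of those tested, against 22% of all probes. Median centring gave 3 and 0 members, 2 and 0 subunits, 1949 and 2902 of all probes (5466 and 5616 as reported) and a complex I median of 0.23 (0.14 as reported). As shares, these were 3.16% and 0% of members, against 7.09% and 10.6% of all probes. An offset of 16 gave 10 lower, and leaving out the FNV array with disagreeing labels 8 lower, for members and subunits alike. For members these were 10.5% and 8.42%, against 21.9% and 19.6% of all probes. Taking 1 probe per gene gave 21 and 8 members and 16 and 8 subunits, from fewer probes. Leaving out each animal gave 16 to 48 higher and 7 to 16 lower members, 12 to 41 and 7 to 16 subunits, and 2937 to 7109 and 2859 to 6965 of all probes. For CD4 status it gave 0 to 5120 of all probes and 0 to 10 members for the stimulated level, and 0 to 2 of all probes for the unstimulated level. Arrays pair the conditions by animal. On the self-self arrays alone, with the animal as a replicate block, 22 and 10 members and 16 and 10 subunits passed; without the block, 1 and 1 members, 1 and 1 subunits, and 1070 and 1089 of all probes did; the complex I median was -0.01 in both. With the block, the shares were 23.2% and 10.5% of members, against 13.9% and 15.9% of all probes. Apart from the smaller sets of probes or arrays, the cause was not tested.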
